A study of Mus musculus with 4 samples.

Results

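Antero-posterior and dorso-ventral patterning of the hindlimb was examined through 7 transcription factor genes, Hand2, Alx4, Pax9, Zic2, Zic5, Lmx1b and En1, among 33456 gene entries in the count tables. The 7 genes were chosen by name, and each was described in E11.5 mesenchyme and ectoderm and then in the later libraries. The data are droplet single-cell RNA libraries of C57BL/6 mouse hindlimb at embryonic days E11.5 to E18.5, with 1 library for each of 4 stages (E11.5, E13.5, then E15.5 and finally E18.5). Each library came from the pooled hindlimb cells of 1 litter, which were dissociated by enzymes, stored frozen, and freed of dead cells after thawing. No genotype or treatment separated the libraries. With 1 library per stage there is no replicate check, no test between stages and no p-value. Ranges in parentheses are exact 95% intervals that cover counting error only.

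As background, the limb bud is patterned along its thumb-to-little-finger axis by Sonic hedgehog (Shh) from posterior mesenchyme and by factors that hold the anterior margin free of it. HAND2 is a basic helix-loop-helix factor of posterior mesenchyme that acts upstream of Shh. ALX4 is a paired-type homeodomain factor of anterior mesenchyme, PAX9 a paired-box factor also found anteriorly, and ZIC2 and ZIC5 are zinc-finger factors encoded by neighbouring genes. Along the back-to-palm axis, WNT7A from dorsal ectoderm induces the LIM-homeodomain factor LMX1B in dorsal mesenchyme, while the homeodomain factor EN1 in ventral ectoderm represses Wnt7a.

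All 7 genes lie on GRCm38 as protein-coding genes in GENCODE vM21. Hand2 (ENSMUSG00000038193) occupies chromosome 8 from 57320983 to 57324633 on the plus strand, and Pax9 (ENSMUSG00000001497) chromosome 12 from 56691767 to 56712822 on the plus strand. Alx4 (ENSMUSG00000040310) lies on chromosome 2 from 93642384 to 93681339 on the plus strand. Lmx1b (ENSMUSG00000038765) lies on the same chromosome from 33560965 to 33640511 on the minus strand. En1 (ENSMUSG00000058665) occupies chromosome 1 from 120602418 to 120607992 on the plus strand. Zic5 (ENSMUSG00000041703, minus strand) and Zic2 (ENSMUSG00000061524, plus strand) sit head to head on chromosome 14, from 122456795 to 122465677 and from 122475435 to 122479852, with 9757 bp between them.

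Promoter windows were found in the RefSeq table of GRCm38.p6 for 5 of the 7 genes. The 250 bases before the RefSeq start, or as many of them as lie outside the gene's annotated exons, were searched on both strands for TAATTA, a core bound by homeodomains of the LMX1B, EN1 and ALX4 kind, and for CATCTG, an E-box of the kind bound by HAND2. The 4 windows shown include those of Hand2 and Pax9, which were found together less often than expected in mesenchyme. The others are those of En1, as the ectodermal gene, and Lmx1b, as the dorsal gene. Lmx1b was not found apart from any other member. Capitals mark the motif matches.
Hand2, chr8:57320733-57320982, plus strand: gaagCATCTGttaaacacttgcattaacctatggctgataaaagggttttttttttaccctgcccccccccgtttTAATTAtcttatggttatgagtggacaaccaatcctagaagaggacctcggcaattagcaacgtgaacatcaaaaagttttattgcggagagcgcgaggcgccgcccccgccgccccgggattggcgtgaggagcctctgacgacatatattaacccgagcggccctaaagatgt
Pax9, chr12:56695221-56695470, plus strand: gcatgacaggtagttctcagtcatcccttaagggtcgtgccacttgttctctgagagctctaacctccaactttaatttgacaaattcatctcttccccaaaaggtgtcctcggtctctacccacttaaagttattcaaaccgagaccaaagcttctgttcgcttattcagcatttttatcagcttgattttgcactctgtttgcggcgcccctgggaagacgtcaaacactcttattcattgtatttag
Lmx1b, chr2:33641099-33641348, minus strand: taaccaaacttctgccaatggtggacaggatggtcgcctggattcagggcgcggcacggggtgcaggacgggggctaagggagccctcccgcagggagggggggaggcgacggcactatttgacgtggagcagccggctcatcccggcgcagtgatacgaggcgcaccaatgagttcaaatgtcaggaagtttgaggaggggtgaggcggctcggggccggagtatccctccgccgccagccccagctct
En1, chr1:120602237-120602417, plus strand: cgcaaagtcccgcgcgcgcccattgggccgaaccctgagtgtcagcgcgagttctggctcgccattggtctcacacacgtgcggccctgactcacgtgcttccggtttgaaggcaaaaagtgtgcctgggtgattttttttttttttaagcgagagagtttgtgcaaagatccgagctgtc
Hand2 held 1 TAATTA starting 175 bases and 1 CATCTG starting 246 bases before its start. Among 32851 RefSeq promoter windows of the same length, 4.84% held TAATTA and 14.4% held CATCTG. The windows of Pax9, Lmx1b, En1 and Zic5 held neither motif, which says only that these letters are absent there. The Pax9 window precedes a RefSeq start that lies inside the GENCODE gene, which begins at 56691767. The stretch before that GENCODE start was not searched. The annotated start of the noncoding gene C130021I20Rik, at 33641193 on the plus strand, falls inside the Lmx1b window.

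The 4 libraries held 10272 barcodes, of which 9929 were kept, 2630, 2812, 2591 and 1896 from the earliest to the latest stage. Median depth was 8926.5, 10263.5, 9934 and 6944.5 UMIs per cell (unique molecular identifiers, each standing for a captured transcript). The library totals without globin genes ranged from 14663977 to 35067884 UMIs. Cells of the libraries shared 69 barcodes, and results without these barcodes are given with the other alternatives. At E11.5, clusters made without the 7 genes gave 1805 mesenchyme-like cells, 365 epithelium-like cells, 393 endothelium-like cells and 57 macrophage-like cells. The mesenchyme joins clusters named limb bud mesenchyme-like (1250 cells) and joint-like (555 cells). The 10 limb bud mesenchyme markers were found in a median of 46.8% of mesenchyme-like and 3.70% of epithelium-like cells. For the 15 epithelial markers these medians were 2.66% and 83.6%. Of the 10 mesenchyme markers, Meis2 alone was found more often in epithelium-like cells, at 79.45% against 25.71% of mesenchyme-like cells. Both lists were among those used to name the clusters, so these shares were not independent of the naming. The hindlimb genes Pitx1 and Tbx4 were found in 86.8% and 11.9% of the mesenchyme.

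In E11.5 ectoderm and mesenchyme the 7 genes were on opposite sides. Hand2, Alx4, Pax9, Zic2, Zic5 and Lmx1b were all lower in epithelium-like cells, and En1 alone of the 7 was higher. Genes were called by size, which required a ratio of CPM (UMIs of the gene per 1000000 UMIs of the cells compared) of at least 2 either way, an interval on 1 side of 1, and at least 20 UMIs. Of all 12818 genes with enough UMIs, 12.1% were lower and 11% higher in epithelium by that rule.

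Hand2, the posterior factor, had 1765 UMIs in mesenchyme and 6 in epithelium, and was found in 43.6% (41.3 to 45.9%) of mesenchyme-like cells. Its share was 1.37% in epithelium-like cells and 3.56% in endothelium-like cells, at median depths of 8894 and 10955 UMIs against 8528 in mesenchyme. Both shares were taken as the background, and whether they came from free RNA was not tested. The mesenchyme value stood far above both, and after thinning each cell to 3000 UMIs it was 22.8%. Its level in epithelium was 62.6-fold lower than in mesenchyme. Zic5 and Zic2 were next in breadth, in 23.5% (21.6 to 25.6%) and 20.6% (18.7 to 22.5%) of mesenchyme-like cells, and their levels were 70.7-fold and 29.4-fold lower in epithelium. Their endothelium-like shares were 1.53% and 0.763%.

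Lmx1b, the dorsal mesenchyme gene, was found in 13.4% (11.9 to 15.1%) of mesenchyme-like cells and 1.92% of epithelium-like cells, 9.97-fold lower by level. Pax9 was found in 10.6% (9.20 to 12.1%) of mesenchyme-like cells. It had 335 UMIs there and none in the 365 epithelium-like cells, which allows a share of up to 0.822% and puts its level at least 23.8-fold lower. Alx4 was the sparsest of the 7 over the whole E11.5 library, with 50 UMIs. Of these, 45 were in 43 mesenchyme-like cells, or 2.38% (1.73 to 3.20%). Its endothelium-like share of 1.02% (0.278 to 2.59%) overlapped that interval, so a part of its low detection was not separable from background at this depth.

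En1 reversed this layout. It had 121 UMIs in epithelium-like cells and 3 in mesenchyme-like cells, a level 190-fold higher (63.4 to 932). It was found in 18.9% (15.0 to 23.3%) of epithelium-like cells and 0.166% of mesenchyme-like cells. No endothelium-like cell held it, which allows up to 0.763%. After thinning, 8.75% of epithelium-like cells held En1.

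**Figure D1:**
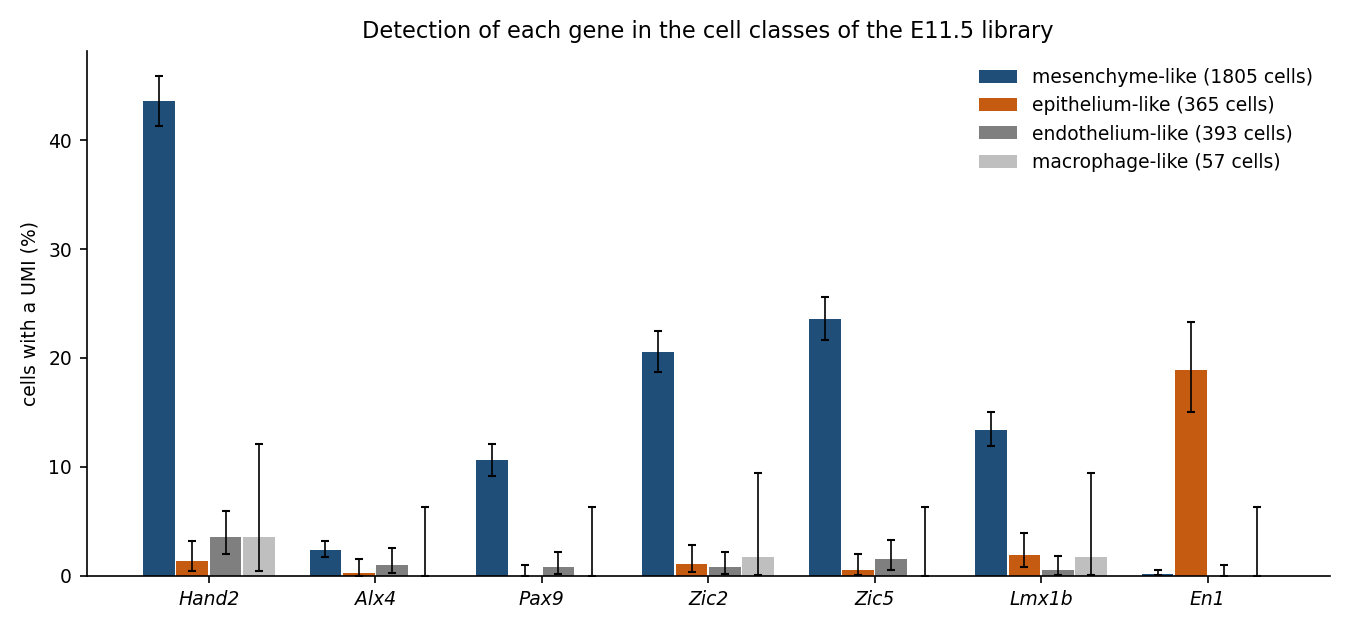
Share of cells with a UMI of each gene (vertical axis, percent) in 4 cell classes of the E11.5 library, with bars from 0 and exact 95% binomial intervals. The 6 mesenchymal genes stand highest in mesenchyme-like cells, from 2.38% for Alx4 to 43.6% for Hand2, and En1 stands highest in epithelium-like cells at 18.9%.

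The genes of the lists kept for comparison divided along the same line. In epithelium against mesenchyme, 9 of 14 posterior and hedgehog genes were lower and 1 was higher. Of 8 anterior genes, 6 were lower and none was higher. Among the dorso-ventral and ectodermal genes, 8 of the 15 with enough UMIs were higher, including Wnt7a, Fgf8, Wnt3 and Sp8, and 2 were lower. That list was made to hold ectodermal genes. Sp6 and Trp63, among the 8, were also markers used to name the epithelium-like class, so their direction was not independent of the naming. The list medians on the log2 scale were -3.25, -2.96 and 1.69, against -0.08 over all genes tested.

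Within the mesenchyme, Hand2 and Pax9 were found apart. Both were present in 35 cells where 93.3 were expected from their shares within 10 bins of UMI depth, a ratio of 0.375 (0.261 to 0.522). Pax9 was found in 4.45% of cells with Hand2 and in 15.3% of cells without it. A pair was called apart at a ratio of at most 0.5 with at least 5 cells expected, and 10 of 11105 genes (0.09%) were apart from Hand2 by that rule. Besides Pax9 these included Hand1, the paralog of Hand2 (20 cells observed, 47.4 expected). Tcea3 was also among them and is named after its values were seen. Clustering E11.5 by itself gave a muscle-like cluster, which held 1 of the 191 Pax9 cells and 4 of the 787 Hand2 cells.

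Of the 15 member pairs with enough cells in mesenchyme, Hand2 with Pax9 was the single pair apart and none was joint, where joint meant a ratio of at least 2 with at least 5 cells observed. Such calls were rare for the Zic genes among all genes, with 0.783% apart and 0.0181% joint for Zic2, and 0.864% and 0.00903% for Zic5. Hand2 was found with Zic2 in 193 cells (188.7 expected) and with Zic5 in 223 cells (209.0 expected), ratios of 1.02 and 1.07. Hand2 with Lmx1b gave 98 cells against 113.5 expected. These ratios had intervals that spanned 1, so neither an excess nor a shortage was detectable. Hand2 with Alx4 gave 14 cells against 20.5 expected, a ratio of 0.683 (0.373 to 1.15), so the exclusion of the posterior from the anterior factor was not detectable with 43 Alx4 cells.

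Pax9 leaned toward the Zic genes. It shared 78 cells with Zic2 (53.6 expected) and 84 with Zic5 (57.5 expected), and both ratios were 1.46, with intervals of 1.15 to 1.82 and 1.17 to 1.81. Zic2 and Zic5 shared 190 cells against 124.5 expected, a ratio of 1.53 (1.32 to 1.76). These pairs were above 1 by counting error but below the ratio of 2 set for a call. Pax9 with Alx4 gave 10 cells against 5.45 expected, and its interval (0.880 to 3.38) spanned 1.

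Hand2 separated the Zic cells by their Pax9 state. Among cells with Zic2 or Zic5, Hand2 was found in 19.6% (12.6 to 28.4%) of the 107 that also held Pax9 and in 59.9% (55.5 to 64.3%) of the 499 that did not. Median depth was 12870 UMIs in the first set and 10913 in the second, so the lower share was in the deeper cells. Without either Zic gene, Hand2 was found in 16.7% of 84 Pax9 cells and 40.6% of 1115 cells without Pax9. The Zic cells therefore held both Hand2 cells and Pax9 cells, with few that held both.

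**Figure D2:**
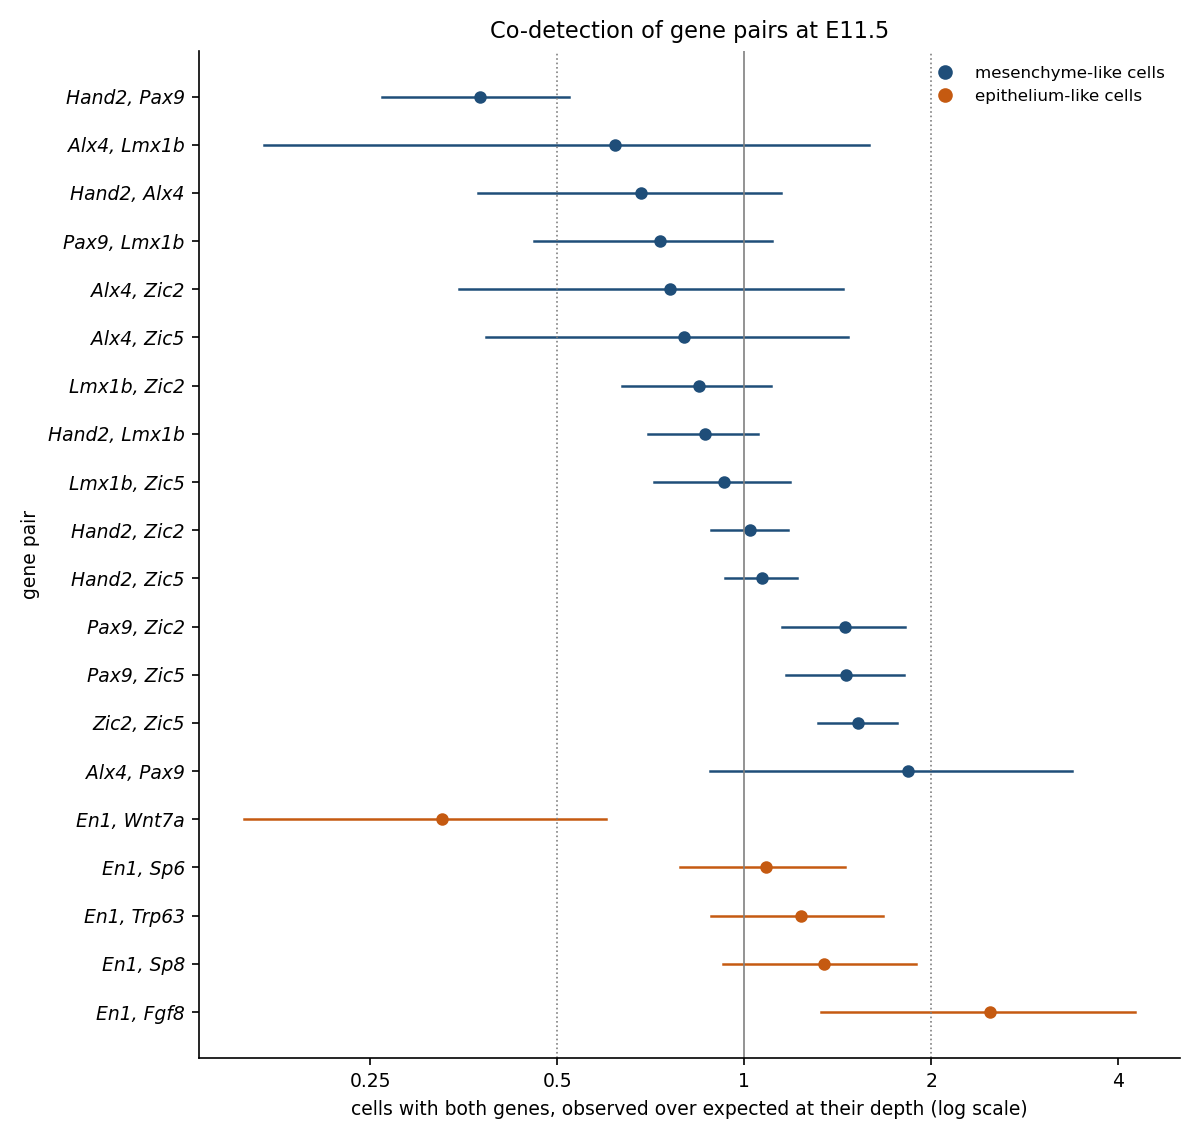
Observed over expected number of cells with both genes (horizontal axis, log scale) for member pairs in mesenchyme-like cells and for En1 with ectodermal genes in epithelium-like cells of the E11.5 library. Points are ratios, lines exact Poisson 95% intervals of the observed number, and dotted lines the ratios 0.5 and 2 used for calls. Hand2 with Pax9 (0.375) and En1 with Wnt7a (0.326) lie below 0.5 and En1 with Fgf8 (2.49) above 2.

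The partners fixed for each gene placed the mesenchymal members further. Hand2 was found in 79.4% of the 34 cells with Shh, its target, with 27 cells observed and 17.9 expected (ratio 1.51, 0.993 to 2.19). It was above expectation with Gli1, a transcriptional readout of hedgehog signal (179 cells, 125.7 expected), with Hoxd12 (325, 215.8 expected) and Hoxd13 (336, 251.5 expected), both distal posterior Hox genes. Ratios with Tbx2 and Tbx3 were 1.33 and 1.28, and with Gli3, which encodes the main repressor of hedgehog targets in the limb, 0.943 (0.839 to 1.06). No gene reached a ratio of 2 with Hand2 (0.0% of 11104), since a gene found in 43.6% of cells can hardly do so.

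Pax9 showed the reverse. Only 4 cells held both Pax9 and Hoxd12 where 57.8 were expected, a ratio of 0.0693 (0.0189 to 0.177). With Shh it shared 1 cell, against 5.14 expected. Of the genes compared with Pax9, 1.6% were apart and 0.298% joint. Hand1 was joint with Pax9, in 39 cells where 12.8 were expected (3.05). Hand1 was thus joint with Pax9 and apart from its own paralog Hand2. The Pax9 paralog Pax1 was found in 14 mesenchyme-like cells, none of them with Pax9, where 1.56 were expected, too few to call.

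Alx4 was joint with Irx3, a gene of the anterior and proximal bud, in 18 cells where 5.05 were expected, a ratio of 3.57 (2.11 to 5.64). The background of joint genes for Alx4 was 2.23%. Its ratios with Alx1 (1.97) and Gli3 (1.27) had intervals that spanned 1. Alx4 and Shh shared no cell, with 1.10 expected, so their exclusion could not be assessed.

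A direct contrast was made between the 773 mesenchyme-like cells with Hand2 and no Alx4 and the 29 with Alx4 and no Hand2, whose median depths were 9745 and 10359 UMIs. By level, 5 of 13 posterior and hedgehog genes with enough UMIs were higher in the Hand2 cells, where 1.63% of all genes were higher. Hoxd13 was 20.9-fold, Gli1 8.96-fold and Hoxd11 8.28-fold higher, and Hoxd12 at least 11.8-fold, as none of the 29 Alx4 cells held it. Hoxd11 was found in 430 of the 773 Hand2 cells and in 2 of the 29 Alx4 cells. Hand1 of the same list was lower, 6.53-fold.

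Of 8 anterior genes, 5 were lower in the Hand2 cells, against 2.03% of all genes. Irx5 was found in 31.0% of the Alx4 cells and 4.92% of the Hand2 cells, and Irx3 in 41.4% and 6.21%. Pax1 was called too, but all 20 of its UMIs among the Alx4 cells were in 1 cell. Pax9 was 7.39-fold lower in the Hand2 cells, found in 7 of the 29 Alx4 cells and 32 of the 773 Hand2 cells. The medians of the posterior and anterior lists were 0.87 and -1.52 on the log2 scale, against -0.04 over all genes. Of the 29 Alx4 cells, 3 fell in the muscle-like cluster of the separate clustering, and their part in these values was not tested.

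When the E11.5 cells were clustered by themselves, the 7 genes did not all peak in the same cluster, with Pax9, Zic2 and Zic5 sharing a peak. Clusters are described by their leading genes. Hand2 was found in 88.7% of 133 cells led by Cntfr and Isl1, a gene of the posterior bud base, and in 80.6% of 180 cells led by Hoxd13, Hoxd12 and Hottip. The first of these clusters also had Hand2os1, a noncoding gene overlapping Hand2, among its leading genes. Only the 7 members were left out of the clustering, so the Hand2 share there may not be independent of it. Pax9 reached 45.9%, Zic2 57.0% and Zic5 62.2% in 172 cells led by Rbfox3 and Figf, where Hand2 was at 25.6%. That cluster was also deep, with a median of 14119.5 UMIs, as was the Hoxd13 cluster with 13200.5, where Pax9 was nevertheless at 1.67%.

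Lmx1b was highest in 133 cells led by Lum, Nbl1 and Agtr2, at 35.3%, and was found at 5.16% or more in the other clusters of the heat map outside ectoderm, endothelium, macrophages and muscle, while the muscle-like cluster showed none. Alx4 reached 7.32% of 246 cells led by Tbx18 and Pkdcc and 9.09% of 44 muscle-like cells with Lbx1 and Myod1 among their leading genes. In the ectoderm, En1 was found in 45.5% of the 22 cells led by Fgf8, the gene of the apical ectodermal ridge, in 23.4% of 218 cells led by Sost and Wnt3, and in 6.45% of 124 cells led by Gabrp and Lypd3.

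**Figure D3:**
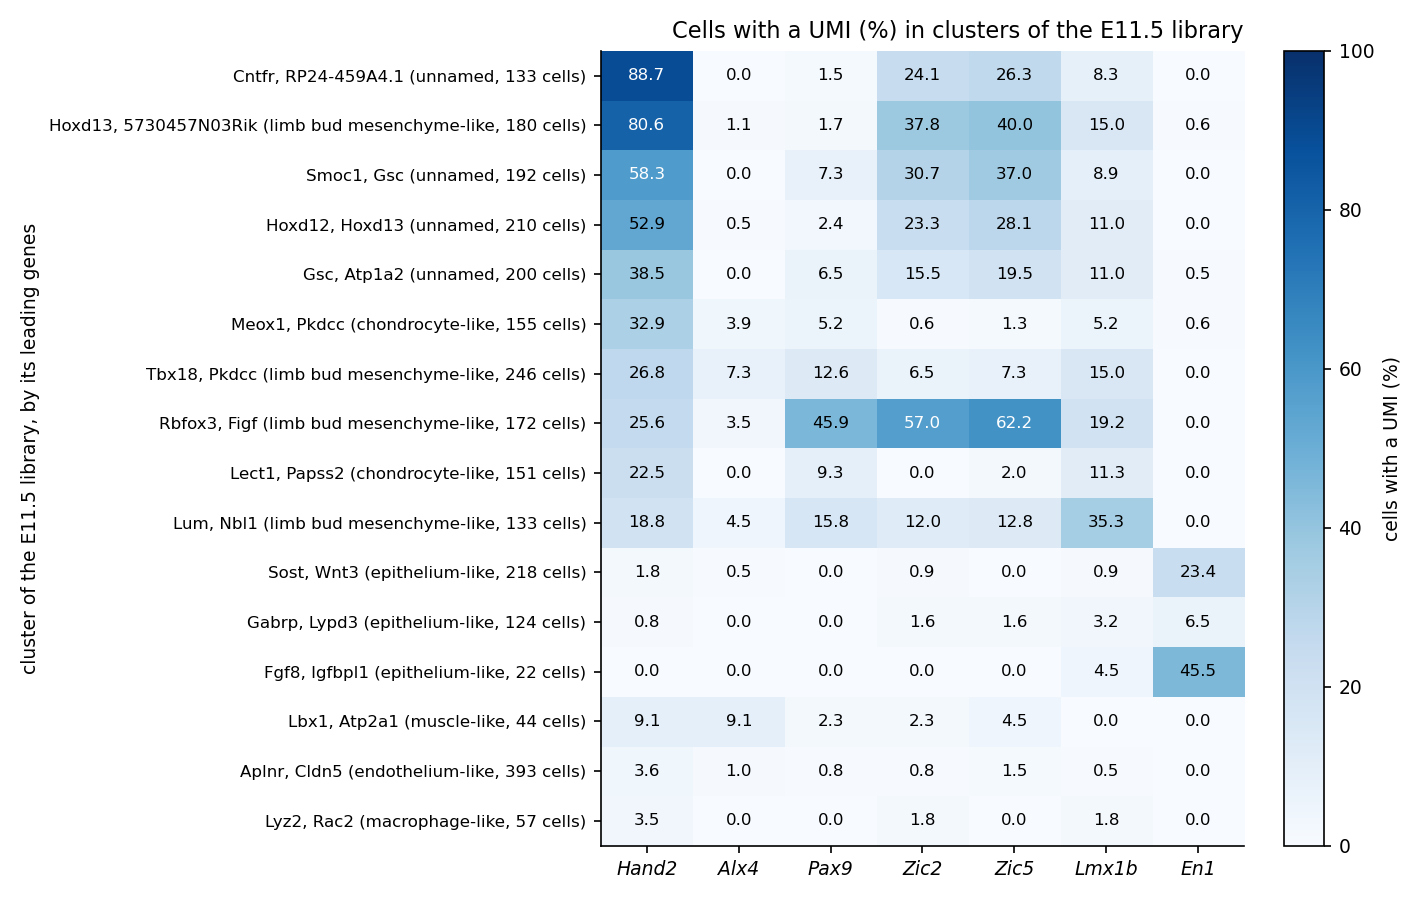
Share of cells with a UMI (colour and printed percent) of each gene in the clusters of the E11.5 library clustered by itself, with the 7 genes left out of the clustering. Hand2os1, which overlaps Hand2 and is among the leading genes of the Cntfr cluster, was not left out by rule. Rows are clusters with 2 of their leading genes, and columns are genes. Hand2 peaks at 88.7% in the Cntfr cluster, Pax9 at 45.9% in the Rbfox3 and Figf cluster, Lmx1b at 35.3% in the Lum cluster and En1 at 45.5% in the Fgf8 cluster.

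On the dorso-ventral axis, Lmx1b was not called apart from, or joint with, any other member. Its ratios with Hand2, Alx4, Pax9, Zic2 and Zic5 ran from 0.620 to 0.930, and all 5 intervals spanned 1. Of all genes compared with Lmx1b in co-detection, 0.11% were joint and 0.785% apart. A contrast of the 242 Lmx1b cells with the other 1563 mesenchyme-like cells was added after the data were seen. In it Grem1, which encodes a secreted BMP antagonist, was 2.72-fold higher and Hand1 2.66-fold lower, each 1 of 14 posterior and hedgehog genes. Of the 8 anterior genes, 1 was lower, Pax1, with 3 UMIs in the Lmx1b cells and 89 in the others, and none was higher. By that measure 0.697% of all genes were higher and 1.23% lower. The Lmx1b cells were deeper, with a median of 10351 UMIs against 8296.

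En1 and Wnt7a were found apart in the ectoderm. Wnt7a, the dorsal signal, was present in 42.2% of epithelium-like cells, and both genes in 10 cells where 30.7 were expected, a ratio of 0.326 (0.157 to 0.600). Wnt7a was found in 14.5% of En1 cells and 48.6% of the others. Of the genes compared with En1 in epithelium, 2.4% were apart. With Fgf8, En1 was joint, in 13 cells where 5.22 were expected (2.49, 1.33 to 4.26), and 1.02% of genes were joint. With the ectodermal factors Trp63, Sp6 and Sp8 its ratios were 1.23, 1.08 and 1.34, and no call was made.

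The genes most like each member were taken by the correlation of log-transformed counts scaled to 10000 UMIs per cell, over the 1805 mesenchyme-like cells, or the 365 epithelium-like cells for En1. All points come from 1 library, depth varies between cells, and the correlations are descriptions. For Hand2 the closest was its antisense neighbour Hand2os1 (r = 0.472), a noncoding gene on the minus strand of chromosome 8 from 57281117 to 57324233 that covers 3251 bp of Hand2, followed by Cntfr (0.287) and Hoxd11 (0.271). Of the 364 E11.5 cells with Hand2os1, 290 (79.7%) held Hand2. The sources used here do not say whether counting used the strand, and how reads from the shared stretch were assigned was not checked.

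Lmx1b was likewise closest to the neighbour noted above, C130021I20Rik (0.266), which is annotated on the opposite strand 681 bp beyond the Lmx1b gene model and does not overlap it. Nrp2 (0.219) and Nbl1 (0.218) followed. The pair shared 118 mesenchyme-like cells where 55.04 were expected, a ratio of 2.14. Zic2 was closest to its neighbour Zic5 (0.299), then Pmaip1 (0.290) and Hoxa11os (0.270), and Zic5 to Pmaip1 (0.344), Zic2 and Hoxa11os (0.285). For 3 of the 7 genes, therefore, the most similar pattern was that of an adjacent gene.

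Pax9 had its highest value with Lhx9 (0.246) and stood at 0.206 with Col1a2. Alx4 gave low values throughout, with Irx3 (0.150), Cdo1 (0.142) and Lhfp (0.141). En1 in epithelium was most like Wnt5a (0.372), Serpinh1 (0.320) and Dlx1 (0.320). Wnt5a encodes a secreted Wnt ligand of distal ectoderm and mesenchyme. Most mesenchyme-like cells held few members, with 549 cells showing none of the 7, 694 showing 1 and 357 showing 2. The 4 cells with 5 members had a median of 15360 UMIs against 6634 in cells with none, so this count moved with depth.

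Across the stages 6 of the 7 genes were highest at E11.5, and En1 was highest at E18.5. Hand2 was found in 30.7%, 15.4%, 13.1% and 6.22% of all cells from E11.5 to E18.5, and in 15.8%, 6.48%, 5.27% and 3.05% after thinning. Its level was 66.8, 16.7, 16.0 and 11.2 CPM. The values stepped down most between the first and second libraries and kept this order after thinning.

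Zic2 and Zic5 had the steepest difference. Zic2 had 560 UMIs at E11.5, then 32, 23 and 5, and Zic5 had 673, then 39, 32 and 11. Their shares were 14.4% and 16.5% of cells at E11.5 and at most 1.10% and 1.24% later. Lmx1b had 338, 77, 54 and 7 UMIs, and was found in 9.58%, 2.38%, 2.01% and 0.369% of cells. Alx4 had 50 UMIs at E11.5 and 5, 7 and 3 afterwards.

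Pax9 stepped down least of the 6 between E11.5 and E13.5 and went on lower after that, with 12.6, 5.39, 1.55 and 0.887 CPM and 7.38%, 3.98%, 1.47% and 0.580% of cells. En1 went the other way, with 4.62, 9.90, 9.12 and 24.9 CPM and 2.74%, 4.84%, 5.52% and 11.02% of cells. After thinning the En1 shares were 1.28%, 2.44%, 2.70% and 6.41%. It was thus the single member with its lowest value at E11.5.

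**Figure D4:**
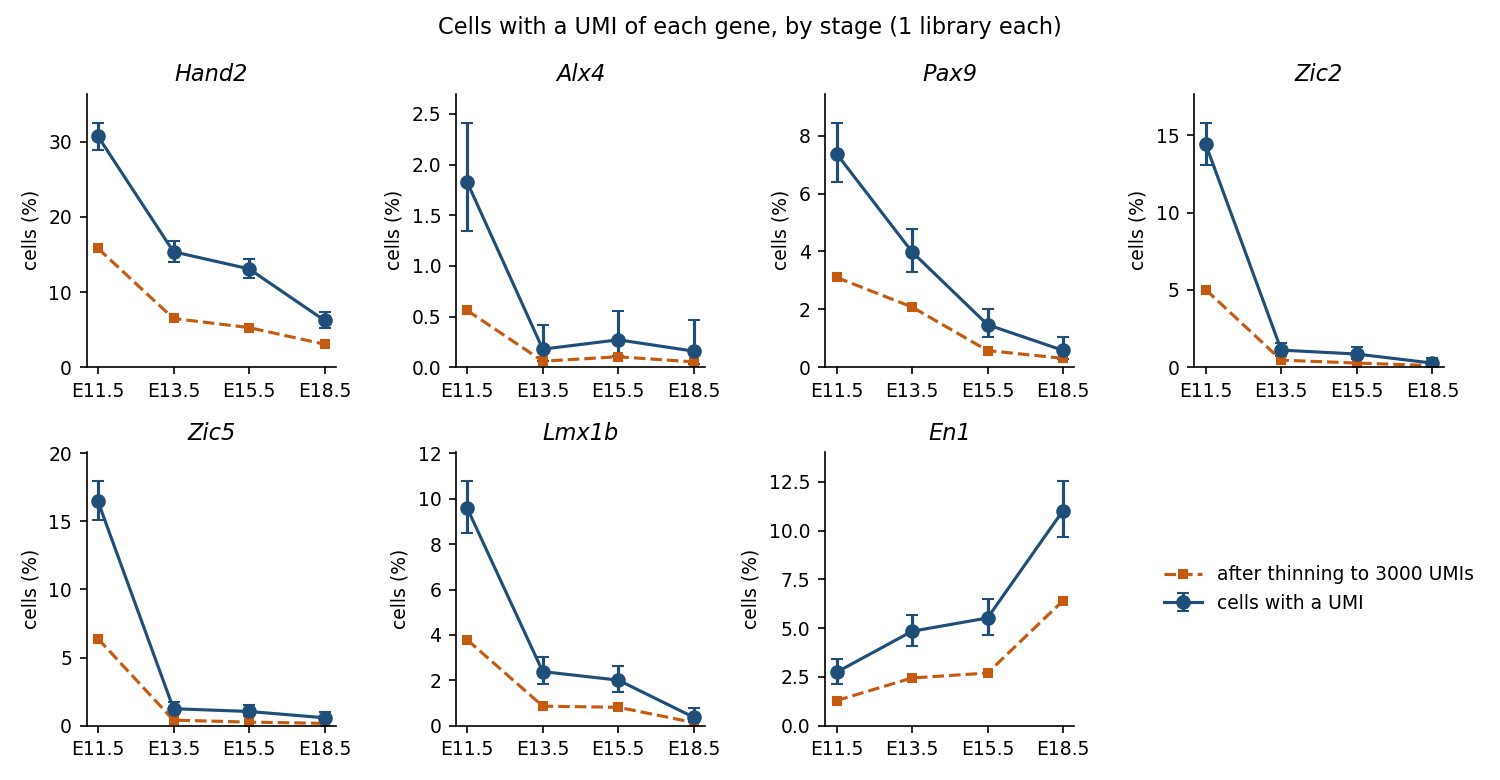
Share of kept cells with a UMI of each gene (vertical axis, percent, scaled per gene from 0) in the 4 libraries, 1 per stage. Circles carry exact 95% binomial intervals and squares show the share after thinning each cell to 3000 UMIs. Hand2 goes from 30.7% to 6.22% and En1 from 2.74% to 11.02%.

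Between E11.5 and E13.5 the rule of size called 6 members lower, where 26.2% of 15160 genes were lower, and En1 higher, where 12.8% were higher. Relative to the median gene, which was itself at -0.55 on the log2 scale, 9.61% of genes were lower and 19.5% higher, and Pax9 was no longer called. Alx4 was 13.1-fold (5.24 to 42.0), Zic2 22.9-fold (16.0 to 33.8) and Zic5 22.6-fold (16.3 to 32.0) lower by CPM. Lmx1b was 5.74-fold (4.47 to 7.45), Hand2 4.01-fold (3.65 to 4.41) and Pax9 2.34-fold (1.95 to 2.81) lower. En1 was 2.14-fold (1.74 to 2.65) higher, a call lost when cells were held to at least 1000 genes and at most 5% mitochondrial UMIs. Anterior, posterior and dorso-ventral lists were mostly lower as well, with 6 of 8, 9 of 14 and 8 of 15 genes lower and list medians of -1.96, -1.78 and -2.16.

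Later steps were smaller. Between E13.5 and E15.5 Pax9 alone of the 6 members with enough UMIs was called, 3.47-fold (2.50 to 4.90) lower, where 0.963% of genes were lower, and no member was higher, with 3.86% of genes higher. Between E15.5 and E18.5 En1 was 2.73-fold (2.33 to 3.21) higher over the whole library, with 11.7% of genes higher, and Lmx1b 3.82-fold (1.73 to 9.95) lower, with 8.2% lower. From E11.5 to E18.5, Zic2 was 61.2-fold, Zic5 33.4-fold, Lmx1b 26.4-fold, Pax9 14.2-fold, Alx4 9.11-fold and Hand2 5.98-fold lower, against 34.9% of genes lower. En1 was 5.39-fold (4.38 to 6.66) higher over that span, against 16.5% higher. Relative to the median gene all 7 calls were kept, with 13.9% of genes lower and 24.5% higher. Over the same span 5 of the 6 measured paralogs were lower and Zic1 was 12.8-fold higher, from 11 to 77 UMIs.

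The make-up of the libraries moved with these values, since connective and cartilage clusters held 1805, 2332, 2045 and 617 of the kept cells from E11.5 to E18.5. Within those clusters Hand2 was found in 43.6%, 17.9%, 16.0% and 17.3% (14.4 to 20.6%) of cells, so its lower library-wide share at E18.5 was not matched there. At E13.5 it was found in 26.0% of 308 joint-like cells, 26.6% of 492 cells in an unnamed cluster led by Dkk2, Ebf2 and Ogn, and 10.9% of 1179 chondrocyte-like cells. Chondrocyte-like cells were deeper, with a median of 14387 UMIs against 6088 in joint-like cells, and the order held after thinning, at 3.14% and 14.0%. At E18.5 fibroblast-like cells held 57.3% of Hand2 UMIs and showed it in 21.1% of 308 cells, while none of 233 epithelium-like cells held it, which allows up to 1.29%.

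Pax9 at E13.5 was found in 9.74% (6.67 to 13.6%) of joint-like cells, 7.11% of the Dkk2 cluster and 2.21% of chondrocyte-like cells, and in none of 243 epithelium-like cells. At E15.5 the Dkk2 cluster still showed it in 5.29% of 227 cells. Lmx1b was found in 9.49% (5.41 to 15.2%) of 158 fibroblast-like cells at E15.5, and in 1 of 308 at E18.5. In the cluster with Rspo1 and Egfl6 among its leading genes, which held most E15.5 fibroblast-like cells, it was in 15 of 155 cells at E15.5 and none of 186 at E18.5. Zic5 at E15.5 had 28 of its 32 UMIs in chondrocyte-like cells, 1.94% (1.25 to 2.88%) of which held it. In endothelium, macrophage and granulocyte-like cells together 1 of 212 held it, or 0.472% (0.0119 to 2.60%), and none of the 167 epithelium-like, 158 fibroblast-like or 134 muscle-like cells did. The chondrocyte-like and background intervals overlapped.

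The separation of Hand2 and Pax9 was not found at E13.5. In connective and cartilage clusters 24 cells held both where 21.1 were expected (1.14, 0.728 to 1.69). In joint-like cells 6 held both where 8.13 were expected (0.738, 0.271 to 1.61), an interval that also held the E11.5 ratio of 0.375. The pooled clusters differed in both genes, with Hand2 in 10.9% and Pax9 in 2.21% of chondrocyte-like cells against 26.0% and 9.74% of joint-like cells. The part of this mixture in the pooled ratio was not tested. The difference in ratio between the 2 stages compares single libraries and was not tested. In the connective and cartilage clusters of E13.5, Zic2 and Zic5 shared 7 cells where 0.394 were expected. En1 and Wnt7a in epithelium-like cells were in 15 cells with 18.8 expected at E13.5 (0.799, 0.447 to 1.32) and in 7 with 4.91 expected at E15.5 (1.43, 0.573 to 2.94). Neither later interval excluded 1.

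The classes that held En1 UMIs differed between stages, and so did the sizes of those classes. Epithelium-like cells held 97.6% of its UMIs at E11.5, then 76.7%, 31.1% and 7.40%. En1 was found in 18.9%, 32.9%, 19.2% and 4.72% of epithelium-like cells. At E18.5, 42.2% of its UMIs were in pericyte and smooth muscle-like cells, 27.1% in fibroblast-like and 22.5% in muscle-like cells. Muscle and pericyte-like cells together numbered 147 in the E15.5 library and 765 in the E18.5 library, and En1 was found in 15.6% (10.2 to 22.5%) and 17.0% (14.4 to 19.8%) of them. These shares are not thinned, and the median depth of the pooled muscle and pericyte-like cells was 15528 UMIs at E15.5 and 7736 at E18.5. Those pooled cells held 36 and 236 En1 UMIs. In epithelium-like and fibroblast-like cells the share of En1 cells was lower at E18.5 than at E15.5. The part of class sizes in the higher En1 level of the whole E18.5 library was not tested.

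Fibroblast-like cells showed En1 in 9 of 20 cells at E13.5, in 39.9% (32.2 to 48.0%) of 158 at E15.5 and in 21.1% (16.7 to 26.1%) of 308 at E18.5. A cluster with Rspo1 and Egfl6 among its leading genes held 155 of the E15.5 cells but 186 of the E18.5 cells, the other 122 being in a cluster led by Mfap5 and Clec3b. Within the Rspo1 cluster En1 was found in 40.6% (32.8 to 48.8%) of the E15.5 cells and 26.9% (20.7 to 33.9%) of the E18.5 cells. In the Mfap5 cluster it was found in 12.3% of the E18.5 cells. Pericyte and smooth muscle-like cells showed it in 3 of 13 cells at E15.5 and in 22.1% (17.8 to 26.9%) of 339 at E18.5. Muscle-like cells showed it in 31.4% of 70, 14.9% of 134 and 12.9% of 426 cells from E13.5 on, with median depths of 15860, 15863.5 and 7683 UMIs. After thinning these muscle-like shares were 8.97%, 3.70% and 6.58%. The E18.5 background was 0.394% of 254 endothelium, macrophage and granulocyte-like cells at a median of 5937.5 UMIs, far below all 3 classes.

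Epithelial markers were far lower in the non-epithelial En1 cells measured than in epithelium-like ones. Measured were En1 cells of fibroblast-like, pericyte and smooth muscle-like, and muscle-like classes where these were numerous enough. The 9 fibroblast-like En1 cells at E13.5, the 3 pericyte and smooth muscle-like ones at E15.5, and those of other non-epithelial classes were left out. In the cells measured, the summed level of the 15 epithelial markers was 19.3 to 130 CPM. It was 5143 to 16145 CPM in epithelium-like En1 cells from E13.5 on. Trp63 was at 0 in all the non-epithelial sets measured. Krt14 was found in 13.3% to 21.8% of the E18.5 non-epithelial En1 cells, and in 18.9% to 23.5% of the cells of the same classes without En1. The marker sum was 130 CPM with En1 and 122 without in E18.5 fibroblast-like cells, and 99.4 and 80.1 in muscle-like cells. It was lower with En1 in E18.5 pericyte and smooth muscle-like cells, at 69.2 against 74.5 CPM. The same held at E15.5 in fibroblast-like (45.6 against 72.5) and muscle-like cells (19.8 against 36.8), and in E13.5 muscle-like cells (19.3 against 27.3). Among E15.5 fibroblast-like cells En1 and Lmx1b shared 8 cells where 6.18 were expected (1.30, 0.559 to 2.55). That interval spanned 1, so neither an excess nor a shortage was detectable. En1 and Hand2 shared 15 cells with 17.9 expected at E15.5 and 18 with 15.2 expected at E18.5. With Zic1, En1 shared 5 fibroblast-like cells where 3.74 were expected at E15.5 (1.34, 0.434 to 3.12) and 6 where 1.74 were expected at E18.5 (3.44, 1.26 to 7.50), pairs for which no background over all genes was computed. Most Zic1 UMIs were in muscle-like cells, 93.2%, 76.6% and 80.5% from E13.5 to E18.5.

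**Figure D5:**
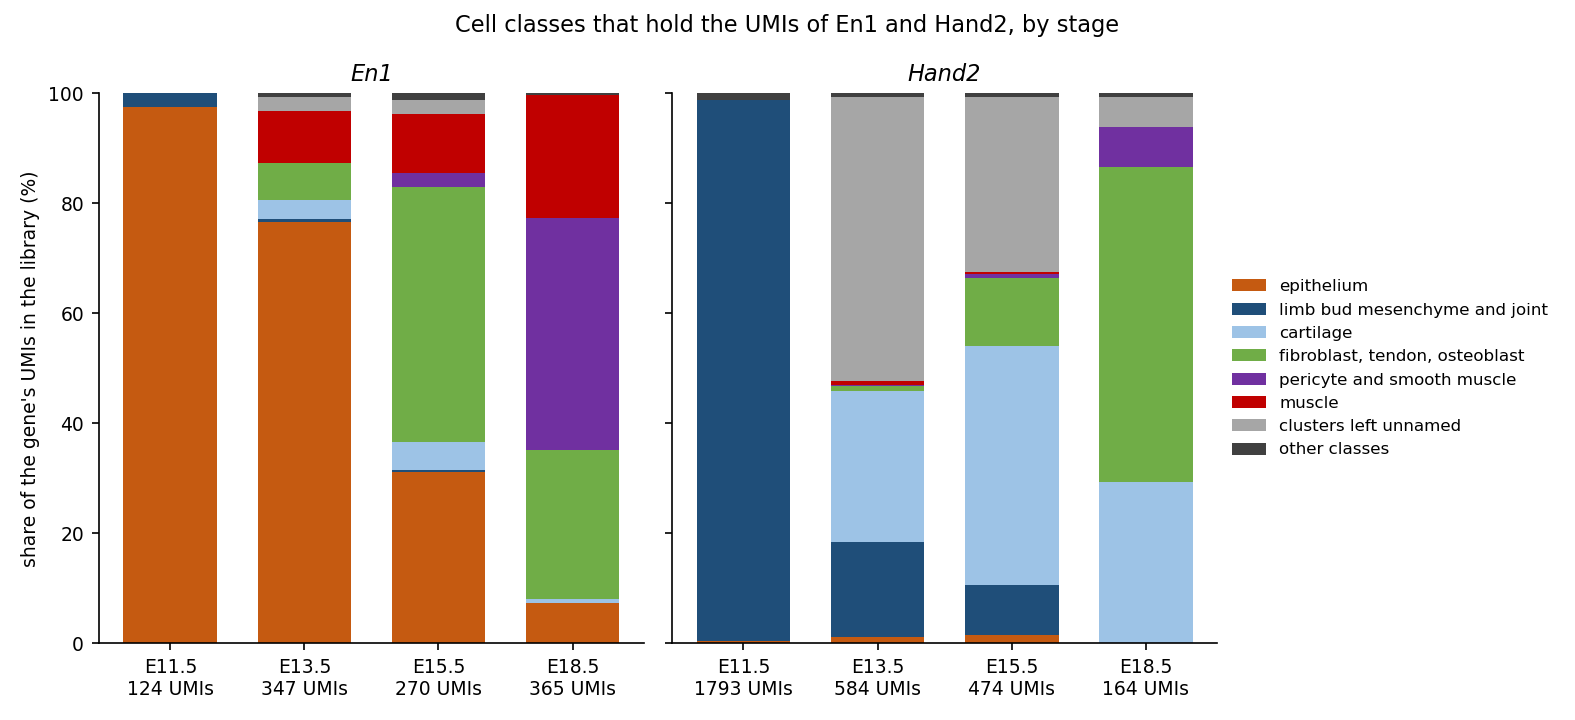
Share of the UMIs of En1 and Hand2 (vertical axis, percent of the gene's UMIs in the library) held by each group of cell classes in the 4 libraries, with the number of UMIs under each bar. Epithelium-like cells hold 97.6% of En1 UMIs at E11.5 and 7.40% at E18.5, when pericyte and smooth muscle-like cells hold 42.2%. Hand2 passes from mesenchyme at E11.5 to cartilage, fibroblast-like and unnamed clusters.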

How the data were processed

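The authors deposited raw UMI counts for every gene and barcode of 10x Genomics 3' version 2 libraries, made with Cell Ranger on mm10, per the submitters' processing notes, which also name Seurat 2.3.4. The sources used here give neither the strand setting nor the barcode-calling rule. Barcodes needed 200 or more genes and no more than 10% mitochondrial UMIs. Scrublet calls (32 barcodes, 0.312%) were removed, but the caller is not regarded as having worked at that rate, so doublets probably remain. Clusters came from scanpy 1.11.5 (2000 variable genes without the 7 members, 30 components, 15 neighbours, Leiden resolution 1.0) over the 4 libraries together, and were called "like" a type from at least 3 markers on fixed lists.

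Levels are CPM over totals without globin genes. Level and co-detection intervals treat each UMI or cell as independent, so they leave out variation between embryos and preparations. Depths were compared after thinning to 3000 UMIs. A share of 0 or a fold against 0 used 3 counts as the limit. Co-detection was compared with genes found in at least 2% of the cells. The calling scripts were tested on simulated data. Named genes are the 7 members, up to 4 examples per list by largest called ratio, fixed partners, and the 3 most correlated genes per member. Members, lists and rules were chosen with earlier results of these data known. The Lmx1b contrast, the late pairs, the joint states and the alternatives without shared barcodes or with all other cells taken as mesenchyme were chosen after seeing the data. Promoter windows are from RefSeq (GRCm38.p6). Values of some genes on the lists or among the leading and most similar genes are not reported here.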

Additional observations from a re-analysis of the deposited data

How the results depend on the processing

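With 1 library per stage, the values compare libraries and carry no biological error, and Alx4 is limited by its 50 UMIs at E11.5. No paired analysis was possible because each stage is 1 library with no replicate number. Hand2 with Pax9 (0.0813 to 0.420) and En1 with Wnt7a (0 to 0.356) stayed apart under each alternative run, and no result changed direction. En1 was not called higher at E13.5 with at least 1000 genes and at most 5% mitochondrial UMIs, which left 0 members higher. Relative to the median gene, 2 posterior and 2 dorso-ventral genes were higher at E13.5, and 2 posterior, 1 anterior and 3 dorso-ventral genes at E18.5, against E11.5. The Hand2 share of mesenchyme was 35.2% when E11.5 was clustered by itself, 22.5% at 2 or more UMIs and 22.8% after thinning. The En1 share of epithelium was 8.22% at 2 or more UMIs and 8.75% after thinning. Without strata of depth, Zic2 with Zic5 reached 2.18 and 2 pairs were joint, the other being Alx4 with Pax9 (2.20). Within cluster and depth 1 pair was joint (Alx4 with Pax9, 2.13), and at 2 or more UMIs of both genes 1 pair (Pax9 with Zic5, 2.21). Without the 10% of cells with the most UMIs 2 pairs were apart, with Alx4 and Zic2 (0.428) added. En1 with Fgf8 gave 2.70 at 2 or more UMIs of both genes, on 4 cells. The cause of these shifts was not tested.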

Other observations

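Other genes annotated close to the members were also counted. 5033428I22Rik, a noncoding gene 7484 bp beyond Hand2 on the same strand, had 40 UMIs at E11.5, and 33 of its 37 cells (89.2%) held Hand2. 2610035F20Rik, which lies between Zic5 and Zic2 and 235 bp from Zic2, had 99 UMIs at E11.5 and 2, 2 and 0 in the later libraries, and 48 of its 87 E11.5 cells held Zic5. Slc25a21 overlaps the end of Pax9 by 189 bp on the opposite strand, and 20 of its 29 E11.5 cells held Pax9. Ext2 overlaps Alx4 by 20312 bp on the opposite strand, but 22 of its 1140 E11.5 cells held Alx4. These genes were singled out after their values were seen. The strand setting is not given, and how reads from overlapping stretches were assigned was not checked.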
